A study of Mus musculus with 8 samples.

Results

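The genes followed here were 6 members of the mouse 2-cell program outside the Zscan4 and Obox families: Tdpoz3, Tdpoz4, Zfp352, Tmem92, Sp110 and Arg2. They were chosen by name, and all 6 were found among the 37310 gene identifiers of the count tables. RNA was measured in 4 pools of DKO embryos, which lack Gadd45a and Gadd45b, and in 4 pools of wild-type embryos, all on the C57BL/6N strain. Each pool held 23 to 35 embryos of 1 litter, collected at the 2-cell stage 20 h after the vaginal plug from superovulated, naturally mated females of 3 to 4 weeks. The females had the genotype of the group, so loss of the maternal and of the embryonic gene products cannot be told apart. In a pool, fewer embryos expressing a gene and less RNA per embryo cannot be told apart either. The comparison asked whether these 2-cell transcripts differed when both Gadd45 genes were lost.

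At the 2-cell stage the mouse embryo clears RNA inherited from the oocyte and starts its own transcription in a short burst. Many genes of that burst use promoters that come from endogenous retroviruses of the MERVL family, and several are young, tandemly copied families. TDPOZ proteins carry a TRAF-like (MATH) domain and a POZ (BTB) domain, the layout of the ubiquitin ligase adaptor SPOP. Zfp352 encodes a zinc finger protein known for its peak at the 2-cell stage, and Sp110 an interferon-inducible nuclear body protein. Arg2 encodes the mitochondrial arginase, which splits arginine into ornithine and urea, and Tmem92 a predicted membrane protein.

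Promoter windows of RefSeq on GRCm38.p6, from 250 bases before to 50 after an annotated start, were found for Tdpoz4, Zfp352 and Sp110 (with a pair of starts). The windows of Zfp352 and of the upstream start of Sp110 stood apart in sequence, so their 250 bases before the start are printed 5′ to 3′. Capitals mark TAATCC on either strand, the core letters bound by OTX and CRX type homeodomain proteins. The Zfp352 stretch is chr4:90218570-90218819, plus strand, and the Sp110 stretch is chr1:85603892-85604141, minus strand.
Zfp352: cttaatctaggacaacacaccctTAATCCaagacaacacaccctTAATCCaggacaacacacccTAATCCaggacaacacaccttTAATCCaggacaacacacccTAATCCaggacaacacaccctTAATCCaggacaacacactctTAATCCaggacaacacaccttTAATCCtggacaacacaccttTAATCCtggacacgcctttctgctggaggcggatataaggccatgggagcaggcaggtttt
Sp110: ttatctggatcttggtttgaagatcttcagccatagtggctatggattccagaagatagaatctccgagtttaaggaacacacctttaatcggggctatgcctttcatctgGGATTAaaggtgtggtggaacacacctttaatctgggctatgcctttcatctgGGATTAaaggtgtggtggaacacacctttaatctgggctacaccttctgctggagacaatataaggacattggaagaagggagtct

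The Zfp352 window held 9 copies of TAATCC, all on the plus strand, and no other window among the 32851 in the table held more than 4. At least 1 copy stood in 7.06% of windows and at least 2 copies in 0.359%. The upstream Sp110 window held 2 copies, both as the reverse complement GGATTA. The other Sp110 window held 1 copy and the Tdpoz4 window none. ACACCTTTAATC, the 12-base sequence with the most copies in both printed stretches, was looked for after the windows had been read. It occurred 5 times in the upstream Sp110 window and 3 times in that of Zfp352, counting both strands, and at least 1 copy stood in 0.164% of windows. Copies of it can overlap TAATCC. The windows of the family members Tdpoz1, Tdpoz9, Spopfm2 and of 1 start of Tdpoz8 also held it. Those of Tdpoz4, Tdpoz5, Tdpoz7 and the other start of Tdpoz8 did not. Counts per gene do not show which start a transcript used.

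**Figure D1:**
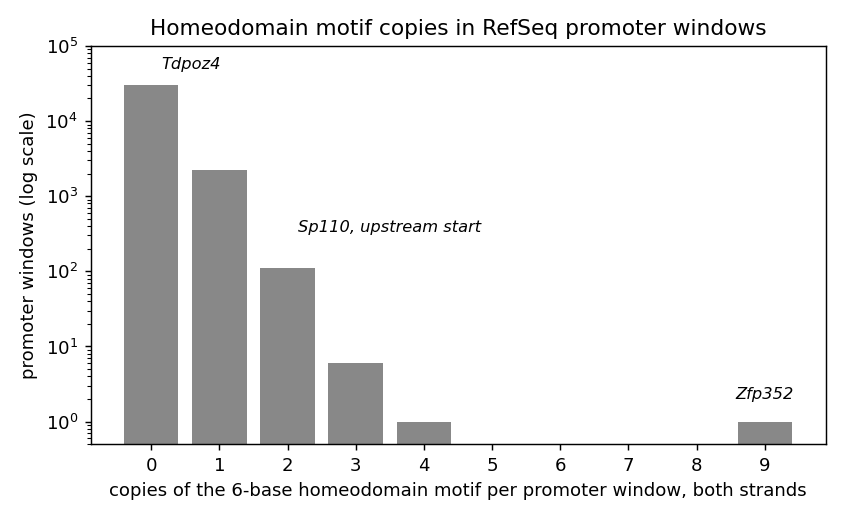
Number of RefSeq promoter windows (y axis, log scale) by the copies of the homeodomain motif in capitals above (x axis, both strands). The Zfp352 window stands alone at 9 copies, the upstream Sp110 window is 1 of those with 2, and the Tdpoz4 window has 0.

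Genes that share this repeat were also looked up in the embryos. Of 53 genes with a window that holds ACACCTTTAATC, 18 were in the count tables, and 14 of these (77.8%) had a mean of at least 10 CPM, the gene count scaled to its TMM-adjusted library total. Among all 17066 measured genes with a window the share was 34.4%. Their median level was 32.6 CPM, against 2.1 CPM over all such genes. Besides Sp110 and Zfp352 the highest were Zbed3, at 2811 CPM in DKO and 2669 CPM in wild-type pools, and Alppl2, an alkaline phosphatase, at 441 CPM in DKO and 625 CPM in wild-type pools. Of the 16 that could be tested, edgeR called 0, 0 had an unadjusted p under 0.05, and the median log2 fold change (DKO minus wild-type) was −0.09. This set was formed after the sequences were read and is a description only. It includes Sp110 and Zfp352, from whose windows the repeat was picked, so the share and median of the set were partly fixed in advance.

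Tdpoz3 and Tdpoz4 are single-exon genes of the Tdpoz cluster on chromosome 3. Their annotated transcripts, of 1098 and 1113 bases, were identical at 79.2% of 1087 aligned bases. The first 85 bases of each coding transcript, the length of a read here, are printed to show how far reads of the pair differ, with the 16 differing bases in capitals.
Tdpoz4: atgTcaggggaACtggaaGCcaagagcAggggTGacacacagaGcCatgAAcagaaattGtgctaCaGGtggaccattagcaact
Tdpoz3: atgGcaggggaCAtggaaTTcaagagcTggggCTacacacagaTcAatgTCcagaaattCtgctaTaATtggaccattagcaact
No stretch of 85 bases was shared exactly between this pair. Other copies in the cluster do share sequence with them: 51.1% of the 85-base stretches of the Tdpoz3 transcript also occur in the pseudogene Gm4982, and 15.4% of those of Tdpoz4 occur in Gm4858 or Gm5541. Gm4982 itself had 0 counts in every DKO pool and 0, 2, 4 and 0 counts in the wild-type pools. Gm4858, Gm5541, Tdpoz1, Tdpoz2 and Tdpoz5 are not analysed here. The handling of multi-mapping reads is unknown here, so the counts of both genes are uncertain.

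Tdpoz4 was the member that separated the genotypes. It stood at 10.1, 22.5, 21.7 and 12.1 CPM in DKO pools 1 to 4, against 33.0, 25.1, 36.5 and 27.8 CPM in wild-type pools 1 to 4. The counts behind these values were 226, 512, 490 and 272 in DKO and 764, 546, 816 and 621 in wild-type. Every DKO pool lay below every wild-type pool, and the lowest values were those of DKO pools 1 and 4. The mean was 16.6 ± 6.40 CPM in DKO and 30.6 ± 5.12 CPM in wild-type (SD, n = 4 each), 1.84-fold lower in DKO. In edgeR's quasi-likelihood test the log2 fold change was −0.88 ± 0.26 (SE; 95% interval −1.43 to −0.33, not adjusted over genes), with an unadjusted p of 0.00402 and an adjusted p of 0.469 over the 14970 genes tested. The difference therefore did not pass. Among all genes tested, 2.55% lay lower in every DKO pool than in any wild-type pool, and 4.44% had an unadjusted p under 0.05 with a lower value in DKO.

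Levels of oocyte transcripts also differed between pools. The summed level of 48 measured maternal transcripts was 32492 to 53238 CPM in DKO pools and 27054 to 34519 CPM in wild-type pools, with the highest sum in DKO pool 1, where Tdpoz4 was lowest. Without that pool the log2 fold change of Tdpoz4 was −0.71, with an edgeR p of 0.00853 before and 0.835 after adjustment. Its remaining pools still did not overlap between genotypes. The part of maternal RNA in the difference was not tested. Of 16 symbols in a list of TDPOZ, SPOP and CUL3 ligase genes, 6 were measured and tested, among them Tdpoz3 and Tdpoz4 themselves. EdgeR called 0 of these, and 2 had a positive and 4 a negative log2 fold change (median −0.05), against 51.2% positive over all genes. As the list mixes Tdpoz genes with SPOP and CUL3 ligase genes, these signs do not describe the Tdpoz family alone. Tdpoz4 had the smallest p.

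Tdpoz3 had the fewest reads of the 6 genes. Its counts were 59, 34, 49 and 51 in DKO pools and 56, 37, 36 and 38 in wild-type pools. The values, 2.64, 1.49, 2.17 and 2.27 CPM in DKO against 2.42, 1.70, 1.61 and 1.70 CPM in wild-type, overlapped throughout. EdgeR gave a log2 fold change of 0.21 ± 0.37 (SE; 95% interval −0.59 to 1.00) with an adjusted p of 0.849. Summed over both genes, Tdpoz RNA was 18.7 ± 6.01 CPM in DKO and 32.4 ± 5.21 CPM in wild-type (SD, n = 4 each). Tdpoz3 made up 11.4% of that sum in DKO and 5.72% in wild-type.

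Zfp352 was higher on average in DKO but the groups overlapped. The pools stood at 344, 328, 495 and 316 CPM in DKO and at 306, 273, 337 and 233 CPM in wild-type. DKO pool 3 lay far above the others, and wild-type pool 3 lay above DKO pools 2 and 4. The mean was 371 ± 83.4 CPM in DKO and 287 ± 44.4 CPM in wild-type (SD, n = 4 each). The log2 fold change was 0.37 ± 0.18 (SE; 95% interval −0.01 to 0.74), with an edgeR p of 0.0534 before and 0.489 after adjustment. Without DKO pool 3 it was 0.20 (edgeR adjusted p = 0.691). Its sequence is nearly its own, with 1.92% of the 85-base stretches of its longest coding transcript also found in another annotated gene, the pseudogene Zfp353-ps. A relative listed as Zfp353 was not analysed here.

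Sp110 had the highest counts of the 6 genes. Its pools stood at 547, 619, 582 and 886 CPM in DKO and at 510, 616, 558 and 692 CPM in wild-type, and DKO pool 4, the pool of 35 embryos, was the highest of all. The mean was 659 ± 154 CPM in DKO and 594 ± 78.6 CPM in wild-type (SD, n = 4 each). EdgeR's log2 fold change was 0.15 ± 0.17 (SE; 95% interval −0.22 to 0.52, edgeR adjusted p = 0.758). Without DKO pool 4 it was −0.03 (edgeR adjusted p = 0.956), and with the log2 number of embryos per pool as a covariate 0.0033 (edgeR adjusted p = 0.995). Of 7 listed nuclear body genes, 6 were measured and tested with 0 calls, 4 of them with a positive and 2 with a negative log2 fold change. Sp140, a paralogue of Sp110, had the smallest p, at 74.8 ± 9.62 CPM in DKO and 67.2 ± 6.09 CPM in wild-type (SD, n = 4 each).

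Counts of Sp110 cannot be assigned to that gene alone. Of the 85-base stretches of its longest coding transcript, which covers 1921 of 6781 exon bases, 43.3% occur in another annotated gene, mainly Gm15753, G530012D18Rik and Gm16026, copies on chromosomes 5 and 1. Gm16026, a transcribed pseudogene chosen after its values were seen, had 11581, 13619, 12923 and 19671 counts in DKO pools and 11289, 12449, 11266 and 14617 in wild-type pools. The corresponding Sp110 counts were 12234, 14103, 13159 and 19906 in DKO and 11802, 13410, 12483 and 15479 in wild-type. The ratio of Gm16026 to Sp110 thus stayed between 0.947 and 0.988 in DKO pools and between 0.903 and 0.957 in wild-type pools. Gm15753 followed at 0.18 to 0.202 of the Sp110 count in DKO and 0.187 to 0.202 in wild-type. Whether these genes were counted from the same reads was not tested.

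Tmem92 overlapped in part between genotypes. Its pools stood at 50.4, 33.5, 42.6 and 52.4 CPM in DKO and at 44.3, 48.3, 55.1 and 46.7 CPM in wild-type. DKO pools 2 and 3 lay below every wild-type pool, DKO pools 1 and 4 lay within their range, and wild-type pool 3 was the highest of all. The log2 fold change was −0.12 ± 0.18 (SE; 95% interval −0.49 to 0.25, edgeR adjusted p = 0.81). Of the 85-base stretches of its longest coding transcript, 0.255% occur elsewhere, in the pseudogene Gm11544 on the same chromosome. Gm11544 had 3.6 to 5.63 times the Tmem92 count in DKO pools and 3.92 to 4.95 times in wild-type pools.

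Arg2 varied most among wild-type pools. The DKO pools stood at 240, 204, 262 and 268 CPM, against 172, 247, 317 and 202 CPM in wild-type pools. Wild-type pools 1 and 3 were therefore the lowest and highest of all 8. The mean was 243 ± 29.0 CPM in DKO and 234 ± 63.3 CPM in wild-type (SD, n = 4 each), and the log2 fold change 0.05 ± 0.18 (SE; 95% interval −0.34 to 0.45, edgeR adjusted p = 0.93). Its sign turned without wild-type pool 1 (−0.07) and without wild-type pool 4 (−0.02). The 3′ end of Arg2 overlaps Vti1b on the opposite strand over 285 bases in the GRCm38 annotation, and 16.5% of the 85-base stretches of its longest coding transcript lie in Vti1b or the antisense gene Gm48780. Vti1b had 0.134 to 0.274 of the Arg2 count in DKO and 0.115 to 0.2 in wild-type. The part of reads from the overlap in the Arg2 counts was not tested.

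**Figure D2:**
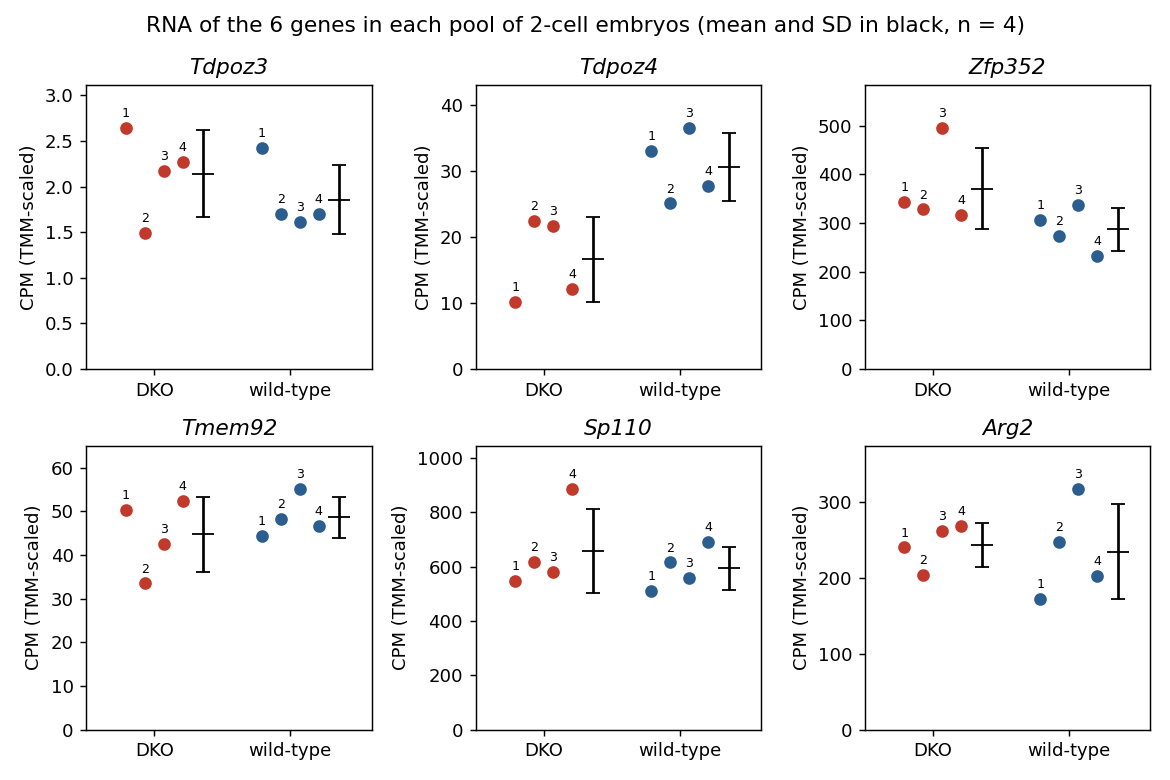
TMM-scaled CPM of each gene (y axis, linear from 0) in the 4 DKO pools (red) and 4 wild-type pools (blue), numbered by replicate, with mean and SD in black. Tdpoz4 is the panel in which the groups do not overlap; in Zfp352 and Sp110 the highest points are DKO pool 3 at 495 and DKO pool 4 at 886 CPM.

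Counted over the 6 members, all of which were tested, edgeR called 0 after adjustment, DESeq2 0 and limma-voom 0. Among all 14970 genes edgeR called 0.0267%, with 0.00668% higher and 0.02% lower in DKO. Over all genes DESeq2 called 49 and limma-voom 5. An unadjusted p under 0.05 was reached by 1 member (Tdpoz4), against 10.2% of all genes. Over 19 alternative settings Tdpoz4 reached it in 19 and Zfp352 in 10. The pools of 1 member did not overlap, against 5.34% of all genes. Non-overlapping pools that were higher in DKO made up 2.79% of all genes. The log2 fold change was positive for 4 members, against 51.2% of all genes, and negative for 2. Its median was 0.10, and 0.01 over all genes. In simulated counts with the means and sizes of these libraries, 200 of 14970 genes, without correlation, were changed 1.5- to 8-fold in each run. There edgeR recovered 10.8% at 1.5-fold, 55.2% at 2-fold and 97.6% at 4-fold. False calls averaged 6.8. The adjustment is looser where more genes are called, and the embryos gave only 4 calls. These shares can therefore overstate the reach of the test for the members. The knockout check held for Gadd45b, with 4, 14, 1 and 6 counts in DKO and 910, 946, 1395 and 808 in wild-type. Gadd45a averaged 9.40 ± 1.69 CPM in DKO and 20.0 ± 2.95 CPM in wild-type (SD, n = 4 each), without overlap. Its log2 fold change was −1.09, with an edgeR p of 0.000162 before and 0.303 after adjustment, so it was not called. Which part of Gadd45a the knockout removes was not known here.

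**Figure D3:**
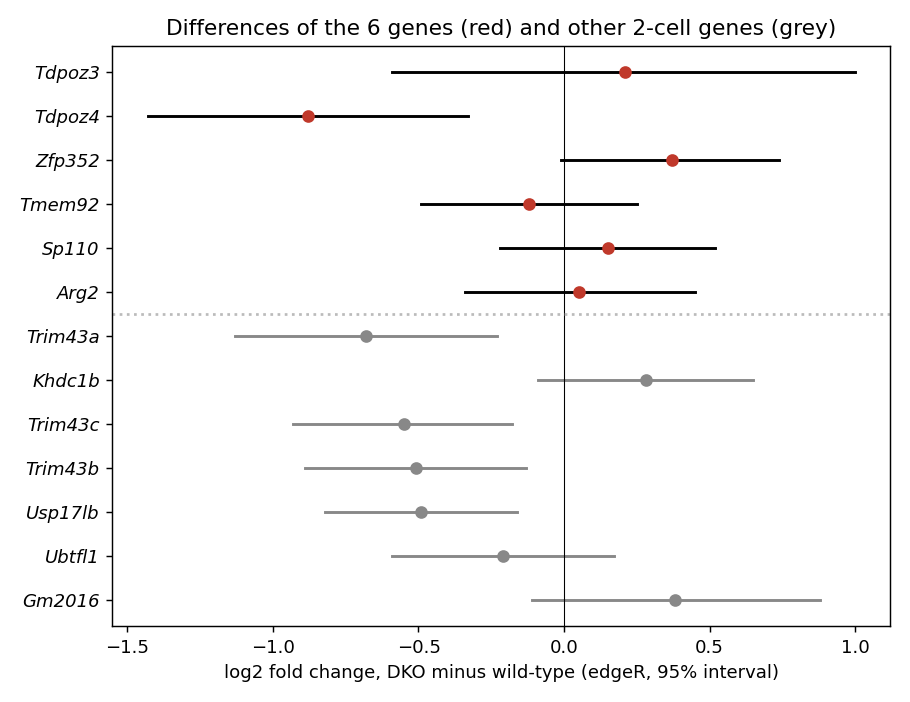
Log2 fold change, DKO minus wild-type (x axis), with 95% intervals from edgeR that are not adjusted over genes, for the 6 genes (red) and 7 other 2-cell genes (grey). Tdpoz4, the Trim43 genes and Usp17lb lie left of 0 with intervals that do not reach it; Zfp352 lies at 0.37.

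Levels of different genes were compared per kilobase of annotated exon. In DKO pools the order was Arg2 at 170 ± 20.3, Zfp352 at 163 ± 36.6, Sp110 at 97.1 ± 22.8, Tmem92 at 20.5 ± 3.93, Tdpoz4 at 14.9 ± 5.75 and Tdpoz3 at 1.95 ± 0.435 CPM per kilobase (SD, n = 4). Wild-type pools gave Arg2 164 ± 44.3, Zfp352 126 ± 19.5, Sp110 87.6 ± 11.6, Tdpoz4 27.5 ± 4.60, Tmem92 22.2 ± 2.12 and Tdpoz3 1.69 ± 0.343 CPM per kilobase (SD, n = 4). Arg2 and Zfp352 overlapped in both genotypes, as did Tdpoz4 and Tmem92. Sp110 and Zfp352 were separate in wild-type pools by a narrow margin, with 102 CPM per kilobase as the highest Sp110 and 103 as the lowest Zfp352 value. The place of Sp110 depends on its length: with the longest coding transcript, 1921 bases in place of 6781 exon bases, it came to 343 ± 80.3 in DKO and 309 ± 40.9 CPM per kilobase in wild-type (SD, n = 4 each), the highest of the 6. Zfp352 and Arg2 exceeded 97.2% and 97.6% of tested genes in level per kilobase, and Tdpoz3 exceeded 41.3%.

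**Figure D4:**
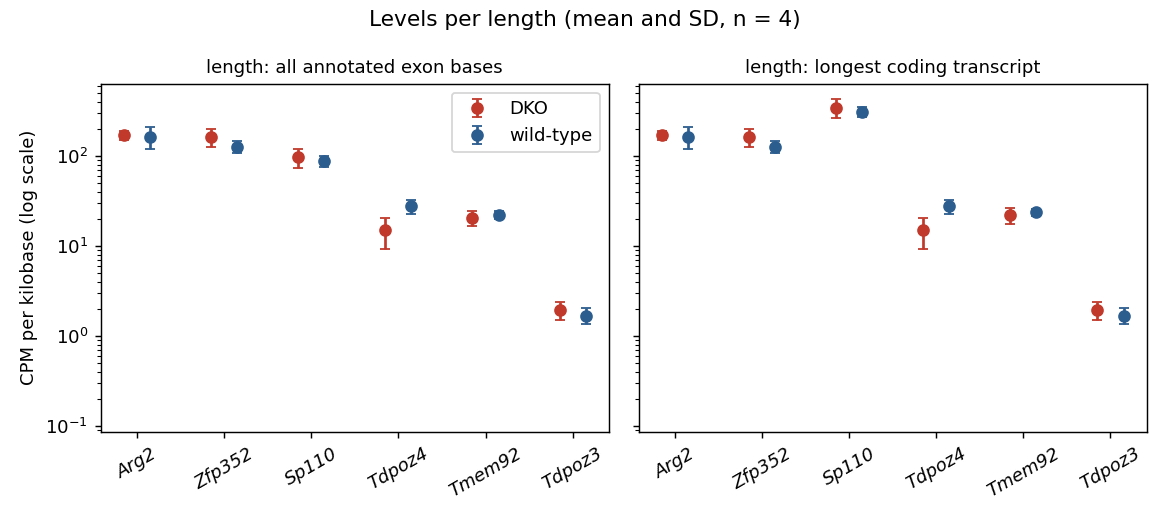
CPM per kilobase (y axis, log scale; mean and SD, n = 4) of each gene in DKO (red) and wild-type (blue) pools, with all exon bases (left) or the longest coding transcript (right) as length. Sp110 moves above Arg2 and Zfp352 in the right panel, and Tdpoz3 lies lowest in both.

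Variation between pools of a genotype differed among the members. The coefficient of variation of Tdpoz4 was 38.6% in DKO and 16.7% in wild-type, that of Sp110 23.4% and that of Tmem92 19.2% in DKO, with 13.2% and 9.55% for the same pair of genes in wild-type. Arg2 was the other way round, at 11.9% in DKO and 27% in wild-type. Over 7532 genes with a mean of at least 10 CPM the median was 19.5% in DKO and 15.6% in wild-type.

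Other genes of the same program were read from a list of 80 symbols, of which 42 were measured and 37 tested. EdgeR called 0 of them, as did DESeq2 and limma-voom. At an unadjusted p under 0.05, 1 was higher and 5 were lower in DKO, against 5.79% and 4.44% of all genes, and the pools of 3 lay lower in DKO without overlap, against 2.55% of all genes. The median log2 fold change of the list was 0.23, against 0.01 over all genes. It was positive for 23 and negative for 14, against 51.2% positive over all genes. The 42 genes summed to 5518 to 5997 CPM in DKO pools, lowest in pool 1, and to 5853 to 6459 CPM in wild-type pools. The lower ones included the Trim43 genes, a tandem family of tripartite-motif proteins. Trim43c was at 481, 724, 750 and 819 CPM in DKO pools, against 1034, 940, 901 and 1191 CPM in wild-type pools, with no overlap (log2 fold change −0.55, edgeR adjusted p = 0.469). Usp17lb, a deubiquitinase of another tandem family, was at 296, 423, 445 and 410 CPM in DKO pools and 589, 519, 567 and 540 CPM in wild-type pools (log2 fold change −0.49, edgeR adjusted p = 0.469). In both genes DKO pool 1 was the lowest of all 8, the pool with the highest maternal sum of 53238 CPM. The part of maternal RNA in these differences was not tested.

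Trim43a, with the smallest p of the list, averaged 236 ± 64.4 CPM in DKO and 378 ± 79.7 CPM in wild-type, and Trim43b 601 ± 108 CPM in DKO and 856 ± 182 CPM in wild-type (SD, n = 4 each). Khdc1b, a KH-domain family gene and the most abundant of the list, was at 1163 ± 283 CPM in DKO and 956 ± 106 CPM in wild-type (SD, n = 4 each). For Ubtfl1 edgeR gave a log2 fold change of −0.21 (adjusted p = 0.662), and for Gm2016 0.38 (adjusted p = 0.549). Gm8300, the gene of the list that was higher at an unadjusted p under 0.05, stood at 331, 199, 254 and 256 CPM in DKO pools and 108, 170, 253 and 130 CPM in wild-type pools (log2 fold change 0.66, edgeR adjusted p = 0.469). Gm13119 stood at 6.21, 3.73, 13.2 and 10.3 CPM in DKO pools and 19.6, 14.4, 12.5 and 18.1 CPM in wild-type pools (log2 fold change −0.95, edgeR adjusted p = 0.469). Both overlapped between genotypes. Reads of such tandem copies can be split between them, so single members are uncertain.

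Regulators of the program were not called either. Dppa2 and Dppa4, partner proteins that activate 2-cell genes, averaged 367 ± 114 and 570 ± 129 CPM in DKO, against 543 ± 184 and 747 ± 154 CPM in wild-type (SD, n = 4 each). Both overlapped between genotypes and were lowest among DKO pools in pool 1, where the maternal sum was highest. Of 12 tested activators, 9 had a negative and 3 a positive log2 fold change, against 51.2% positive over all genes. At an unadjusted p under 0.05, 2 were lower in DKO, against 4.44% of all genes. These were Nfya, a subunit of the CCAAT-binding factor (log2 fold change −0.50, edgeR adjusted p = 0.471), and Dppa2 (log2 fold change −0.57, edgeR adjusted p = 0.48). The 24 repressors had 14 negative and 10 positive values, with Hdac1, a histone deacetylase, at −0.34 (edgeR adjusted p = 0.497). Among 28 tested genes of arginine use, which include Arg2, edgeR called 0. The smallest p there was that of Pycr1, a proline synthesis enzyme, at −0.79 (edgeR adjusted p = 0.471).

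Transcripts of the 2-cell stage were present in every library. Library totals were 21329736 to 23919114 counts, with 18433 to 20427 genes detected, and the 6 genes took 0.121% to 0.153% of counts in DKO and 0.104% to 0.132% in wild-type. Zscan4d, another 2-cell gene, was at 221 ± 57.4 CPM in DKO and 206 ± 50.8 CPM in wild-type, and Zscan4c at 24.8 ± 5.22 CPM in DKO and 25.9 ± 9.03 CPM in wild-type (SD, n = 4 each). Of 25 cumulus and granulosa markers, Ptx3, Amh, Inhba and Foxl2 were at 0 in every pool. The list summed to 35.2 to 55.2 CPM in DKO and 37.1 to 45.2 CPM in wild-type, most of it Amhr2. Over all pools Amhr2 had a mean of 24.7 CPM, Tnfaip6 8.35 CPM and Vim 3.92 CPM. The tested member of this list with the smallest p, Cyp19a1, had a log2 fold change of 0.45 (edgeR adjusted p = 0.688). Markers of later stages summed to 203 to 283 CPM in DKO and 207 to 279 CPM in wild-type, and Dab2 had the smallest p there (0.56, edgeR adjusted p = 0.469). In the maternal list edgeR called 0 of 47 tested genes. At an unadjusted p under 0.05, 12 were higher and 1 was lower in DKO, against 5.79% and 4.44% of all genes. The median log2 fold change of the 47 was 0.26, against 0.01 over all genes. It was positive for 36 and negative for 11, against 51.2% positive over all genes. The pools of 5 lay higher and of 1 lower in DKO without overlap, against 2.79% and 2.55% of all genes. Nlrp4f, an oocyte gene of the NLRP family, had the smallest p, at 280 ± 82.7 CPM in DKO and 148 ± 28.8 CPM in wild-type (SD, n = 4 each; log2 fold change 0.92, edgeR adjusted p = 0.394).

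For each member the genes with the most similar profile over the 8 pools were named as a description. Among 10257 genes with at least 1 log2 CPM, Pearson's r of log2 CPM was 0.97 between Tdpoz4 and Ints9 and 0.97 with Lrrc2, followed by Ggact. Zfp352 was closest to Gstp2 (0.96) and to the zinc finger genes Zfp984 (0.95) and Zfp708 (0.93). Sp110 was closest to Eif4g1 (0.96), Chaf1a and Dhps, and Arg2 to Ier5l (0.97), Samd8 and Tmsb10. Tmem92 had an r of 0.94 with Tsen34 and with Fam57a, and Tdpoz3 was closest to Arhgap42 (0.97), Cyp2f2 and Csmd3. Each is the highest or near the highest of 10257 values over the same 8 libraries and carries no test.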

How the data were processed

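RNA of 8 pools of 2-cell embryos (4 DKO, 4 wild-type) was deposited by the authors as raw whole-number counts per Ensembl gene, a table for each library. Per the labels' protocols, polyA RNA was made into cDNA with a SMART-Seq kit in 11 PCR cycles and into libraries in 11 more, and read once over 85 cycles. Molecules were not marked, so reads are not independent molecules. SDs are over the 4 pools of a group, and intervals come from the edgeR fit to all 8. Tools named, per the submitters' processing notes, were STAR 2.5.2b, featureCounts 1.5.1 and DESeq2 1.18.1, with the builds NCBIM37 and mm9. Strand and multi-mapping settings are not given in the sources used here. Symbols were matched for 32620 of 37310 identifiers. Gene types, lengths and transcripts came from GENCODE M21 and promoters from RefSeq, both on GRCm38, a later build than the counts, so coordinates are given only for the printed promoter sequences.

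The filterByExpr filter and TMM scaling preceded tests with edgeR 4.0.16 (robust quasi-likelihood test, R 4.3.3), without covariates, with Benjamini-Hochberg adjustment over 14970 genes and a threshold of 0.05. CPM use TMM library sizes, with a prior count of 2 on the log2 scale. DESeq2 1.42.0, limma 3.58.1 (voom with quality weights), other scalings and filters, a replicate block, a pool-size covariate and leaving out libraries were alternatives. The edgeR script was tested on simulated data in 5 runs with 200 changed genes. Levels per kilobase used all annotated exon bases.

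The members and gene lists were chosen with earlier results of these data known. Genes named were the members, Gadd45a, Gadd45b, the 6 most abundant listed 2-cell genes, Dppa2, Dppa4, members of each list past the threshold or else the one with the smallest p, and the 3 genes most similar to each member, of which 1 is not reported here. Any further gene was picked with its values in view.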

Additional observations from a re-analysis of the deposited data

Results flagged for a closer look

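In wild-type pool 1 Tdpoz3 stood at 2.42 CPM, well above the 1.70, 1.61 and 1.70 CPM of the other wild-type pools; the gap was 0.887 of the group's range, over Dixon's 95% critical value for 4 samples. In DKO pool 3 Zfp352 stood at 495 CPM, above 344, 328 and 316 CPM in the other DKO pools, with a gap of 0.844 of the range. Chance flags about 1 in 20 groups, and 12 groups were looked at.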

How the results depend on the processing

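No member and no other listed 2-cell gene passed adjustment under any alternative run. For Tdpoz4 the log2 fold change ranged from −1.07 to −0.67 over 19 alternatives (adjusted p 0.141 to 0.894, an unadjusted p under 0.05 in 19 of 19). Zfp352 ranged from 0.20 to 0.45 (adjusted p 0.344 to 0.915, an unadjusted p under 0.05 in 10 of 19). Tmem92 ranged from −0.22 to −0.01, and Tdpoz3 from 0.08 to 0.35 over the 18 alternatives that kept it. Sp110 ranged from −0.03 to 0.23 and Arg2 from −0.07 to 0.23. The sign of Sp110 turned to −0.03 without DKO replicate 4. The sign of Arg2 turned to −0.0042 with embryos per pool as a covariate, −0.07 without wild-type replicate 1, −0.02 without wild-type replicate 4 and −0.06 without both libraries numbered 1. The cause was not tested. Over all genes, 4 calls became 7 with no filter on low counts, 1 at a mean of at least 10 CPM and 49 with DESeq2. The number of members without overlap was 1 or 2 when single libraries were left out, the other being Zfp352 without wild-type replicate 3. Sp110 stood at 309 CPM per kilobase in wild-type with the longest coding transcript as length, an alternative chosen after seeing the data, against 87.6. Scaled by library totals only, all genes had a median of 0.066.

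Same-numbered pools were not treated as pairs. The correlation of their deviations was 0.00235 to 0.078, and 2 of 4 DKO pools correlated best with their own number. Differently numbered pools ranged from −0.19 (DKO pool 1 with wild-type pool 4) to 0.224 (DKO pool 1 with wild-type pool 3). Whether same-numbered pools were prepared together is not known here, and these values cannot show it. With the replicate block edgeR called 4 genes, 0 members and 0 other 2-cell genes, and Tdpoz4 was at −0.95. Tdpoz3 had the lowest depth, with 34 to 59 counts per library.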
